A study of Homo sapiens with 6 samples.

Results

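C7 and 7 further genes of innate immunity, CD14, VCAM1, SOD2, NFKBIZ, IFIT1, IFIT2 and GBP2, were followed in CCD-18Co cells, an established line of human colon fibroblasts that the submitters' design text calls myofibroblasts. These 8 genes are read by 10 probe sets, out of 54613 on each array and out of 1648 genes with a name here. They were chosen by name, and also selected on their values: a probe set carries a gene name here only if it stands in the authors' deposited table of 2411 probe sets with a p at or under 0.05 for the same comparison of SHH with untreated cells. All differences between the groups below are therefore descriptions, given with their error and without a p. The member nearest to that limit was CD14, with p = 0.0475 in the authors' deposited table. The authors' q, from the same Cyber-T comparison, was 0.392 for C7 and between 0.517 and 0.999 for the other member probe sets. No member was thus under 0.05 after the authors' own adjustment. Probe sets beyond the limit have no name here, so that unchanged probe sets of the same 8 genes, or of any other gene named below, may exist on the arrays.

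The SHH group consisted of 3 biological replicates of CCD-18Co cells given 1 ug/ml of sonic hedgehog (SHH), a secreted ligand of the hedgehog pathway, over 72 h. The untreated group consisted of 3 replicates of the same line, for which no time in culture is recorded and which the deposited readme calls vehicle. Both groups were grown in medium with 0.1% bovine serum albumin, and RNA of each culture was hybridised to 1 single-colour Affymetrix array. Array medians lay between 94.4 and 111 and trimmed means between 498.1 and 498.2, and precision is limited by having 3 arrays in each group. Of 12 fibroblast markers 4 had a name, all with a lower mean with SHH and none past the threshold of limma used below. Among them were the surface protease FAP, with a signal of 686 ± 52.4 in SHH-treated and 958 ± 78.5 in untreated cells, and the growth factor receptor PDGFRB, with 3400 ± 309 in SHH-treated and 4690 ± 402 in untreated cells (SD, n = 3 each). Of 11 monocyte and macrophage markers CD14 alone had a name, and none of the 8 endothelial or 6 T cell markers had one. Whether other cells were present in the cultures was thus not tested.

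Innate immunity acts through several layers that these genes represent. Complement is a cascade of plasma and tissue proteins in which C7 joins the terminal complex that inserts into membranes. CD14 presents bacterial lipopolysaccharide to Toll-like receptor signalling, which activates the transcription factor NF-kB. VCAM1, SOD2 and NFKBIZ are well-known NF-kB targets, IFIT1 and IFIT2 are induced by type I interferon, and GBP2 is induced mainly by interferon gamma. In the gut, fibroblasts and myofibroblasts beneath the epithelium make complement components, adhesion molecules and cytokines.

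The stretches upstream of 4 of these genes are shown because they carry, or lack, short motifs through which the inducing pathways are known to act. Sequences are the 250 bases before the RefSeq transcript start (GRCh38.p14), 5′ to 3′ on the gene's strand, for 6 of the 8 genes with 10 start sites in all; the sequences of IFIT2 and GBP2 were not used here. Capitals mark matches, on either strand, to the core letters GGNNTTTCC of the NF-kB motif, GAAANNGAA of the interferon-stimulated response element or GACCACCCA of the GLI motif, where N is any base.
C7, chr5:40909247-40909496, + strand: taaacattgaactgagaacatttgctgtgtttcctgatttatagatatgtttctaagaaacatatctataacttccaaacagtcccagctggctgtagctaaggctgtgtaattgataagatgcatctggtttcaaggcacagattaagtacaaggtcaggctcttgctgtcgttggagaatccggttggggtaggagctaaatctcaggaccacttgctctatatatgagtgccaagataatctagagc
VCAM1, chr1:100719492-100719741, + strand: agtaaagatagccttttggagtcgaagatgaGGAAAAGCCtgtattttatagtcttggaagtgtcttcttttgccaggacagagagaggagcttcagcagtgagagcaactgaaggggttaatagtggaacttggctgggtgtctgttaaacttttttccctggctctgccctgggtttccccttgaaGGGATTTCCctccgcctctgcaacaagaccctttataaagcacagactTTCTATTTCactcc
NFKBIZ, chr3:101827740-101827989, + strand, the more upstream of its 2 start sites: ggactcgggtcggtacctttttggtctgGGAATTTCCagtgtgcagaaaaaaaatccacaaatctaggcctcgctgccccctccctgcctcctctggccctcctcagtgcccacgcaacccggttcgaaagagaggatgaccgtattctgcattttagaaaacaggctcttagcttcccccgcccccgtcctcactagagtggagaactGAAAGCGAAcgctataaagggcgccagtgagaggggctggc
IFIT1, chr10:89392373-89392622, + strand: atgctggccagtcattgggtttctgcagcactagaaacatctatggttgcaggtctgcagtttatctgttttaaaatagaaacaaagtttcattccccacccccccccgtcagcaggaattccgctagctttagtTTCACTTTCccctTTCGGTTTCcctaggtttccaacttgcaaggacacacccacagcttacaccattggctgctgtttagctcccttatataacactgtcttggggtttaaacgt

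The NF-kB letters occurred in 5.48% of all 35116 upstream stretches of this length, the interferon letters in 6.88% and the GLI letters in 0.199%. VCAM1 had 2 NF-kB matches, 1 of them GGGATTTCC at positions -62 to -54 before the start, and the NFKBIZ start shown had 1, GGAATTTCC at -222 to -214. The other NFKBIZ start, not shown, also had 1, GGGGTTTCC at -239 to -231. IFIT1 had 2 interferon matches, TTCACTTTC and TTCGGTTTC, which read as the motif on the opposite strand, at -115 to -107 and -102 to -94. VCAM1 and the NFKBIZ start shown held 1 interferon match each, and the other NFKBIZ start held none. No match to any of the 3 motifs was found in the stretches of C7, CD14 and all 4 start sites of SOD2, and no GLI match in any of the 10. A match is a run of letters and no evidence of binding, and the motifs overlap in none of the stretches shown.

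Setting the SHH arrays against the untreated ones addresses how these transcripts respond to the hedgehog ligand. C7 stood apart from the other 7 genes by the size of its fall, to a signal that was 4.19-fold lower with SHH. In the remaining genes the difference was smaller, between 0.56 and 0.92 in size on the log2 scale, and it went both ways. VCAM1, NFKBIZ, IFIT1 and IFIT2 had lower signals on all SHH arrays than on any untreated array, while SOD2, CD14 and GBP2 had higher ones. In RNA of whole cultures, fewer cells of a type and less RNA per cell cannot be told apart. Of the 10 probe sets, 1 (C7) passed limma at an adjusted p under 0.05, against 0.123% of all 54613 probe sets (45 higher and 22 lower with SHH, and 32 higher and 2 lower with arrays centred on their medians). In 10 of the 10 all SHH arrays lay on one side of all untreated arrays, against 17.3% of all probe sets and 95.7% of the authors' table from which the names come, so nothing is read from that count.

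**Figure D1:**
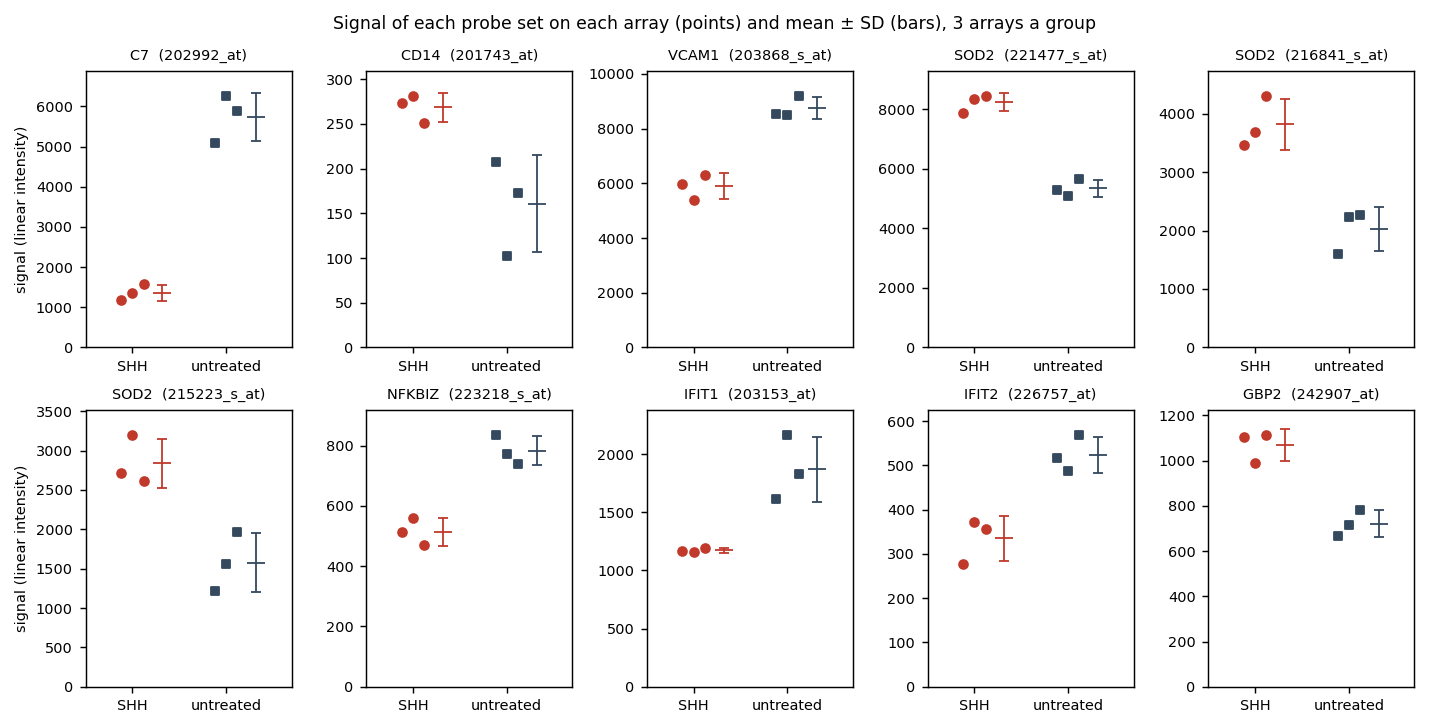
Signal (linear intensity, vertical axes from 0) of the 10 probe sets on each of the 3 SHH arrays (left, circles) and the 3 untreated arrays (right, squares), with the mean ± SD beside the points. In every panel the groups lie apart, and the gap is widest for C7, where the highest SHH array is at 1571 and the lowest untreated array at 5085.

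C7, which binds to the forming terminal complement complex and gives it its first hold in the membrane, was read by 1 probe set (202992_at). Its signal was 1173, 1346 and 1571 on the SHH arrays, against 5085, 6265 and 5884 on the untreated arrays. The lowest untreated array was thus 3.24 times the highest SHH array, whereas arrays within a group differed by at most 1.34-fold. The mean was 1363 ± 199 in SHH-treated and 5745 ± 602 in untreated cells (SD, n = 3 each), a log2 difference of -2.07 ± 0.16 (limma's moderated SE, on the log2(intensity + 16) scale, as for all log2 differences below). That call was lost when 1 in place of 16 was added before taking logs, when array medians were made equal, when the replicate number was a block and on leaving out any single array, and the difference was -2.17 to -1.97 with an array left out.

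A further probe set (241302_at), which only the authors' annotation places 3′ of C7 and which does not count among the 10, was much dimmer. It had 141, 110 and 135 with SHH, against 302, 241 and 181 untreated. The groups did not overlap, with a log2 difference of -0.81 ± 0.21, and it did not pass limma's threshold. It is singled out here after its values were seen. Its annotation also comes through this same comparison, so nothing is read from the direction it shares with C7.

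Among the other genes of terminal complement, 3 of 10 had a name including C7, and C7 alone passed. Clusterin (CLU), which can keep the terminal complex soluble, had a signal of 2054 ± 281 in SHH-treated and 3023 ± 216 in untreated cells (SD, n = 3 each). CD59, the membrane protein that blocks completion of the complex, had 10254 ± 137 with SHH and 7932 ± 564 untreated. Their log2 differences were -0.56 ± 0.15 and 0.37 ± 0.11. These signals come from different probe sets, so that their levels cannot be ranked against each other.

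Of 27 genes of early complement and its regulators, 5 had a name, 2 with a higher and 3 with a lower mean in SHH-treated cells, and none passed. The lectin pathway protease MASP1 lay at -0.75 ± 0.11. C4A, which carries a step of the classical and lectin pathways, lay at -0.50 ± 0.14, and its near-identical copy C4B may share that signal. C1RL, a relative of the protease C1r, lay at -0.38 ± 0.11. The higher means were those of CD55, which speeds the decay of complement convertases on the cell surface, at 0.68 ± 0.11, and of the alternative pathway protease factor D (CFD), at 0.51 ± 0.12. The medians of these lists were -0.56 and -0.38, beside -0.01 over all 1648 named genes. Of those 1648 genes, 824 had a higher and 824 a lower mean with SHH, and limma called 26 higher and 14 lower. Named genes were selected on this same comparison and lay away from 0, with a median size of 0.48. A median of 3 or 5 such genes, with 1 and 2 of them higher, thus describes no common direction.

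**Figure D2:**
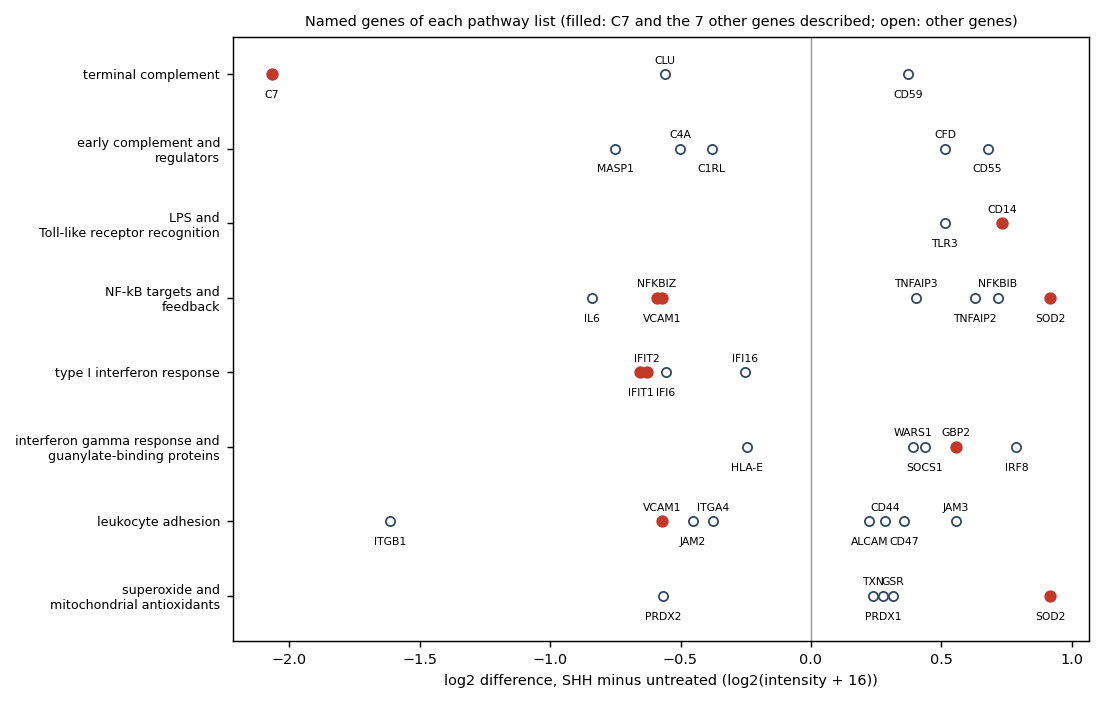
Log2 difference, SHH minus untreated (horizontal axis), of the named genes in 8 pathway lists (rows), at its brightest probe set with 1 name; filled points are C7 and the other 7 genes described, open points the other genes of the lists. C7 at -2.07 is the leftmost point, the 4 named genes of the type I interferon list all lie left of 0, and the NF-kB list lies on both sides of 0. All genes shown have their name through this same comparison, so no direction of a list is read from them.

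CD14, the surface co-receptor for lipopolysaccharide, gave the dimmest of the 10 signals, with 64.03% of all probe sets dimmer. It had 273, 281 and 250 on the SHH arrays, against 208, 102 and 173 on the untreated arrays. The groups did not overlap, but untreated replicate 2 was low, and the untreated arrays differed among themselves by 2.03-fold. The log2 difference was 0.73 ± 0.25, and 0.47 without untreated replicate 2. CD14 is also the 1 named gene of the monocyte and macrophage markers, and whether cells of that kind added to its signal was not tested. Of 24 genes of lipopolysaccharide and Toll-like receptor recognition, TLR3, a sensor of double-stranded RNA, was the only other one with a name and lay at 0.51 ± 0.14, which did not pass.

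VCAM1, the adhesion molecule that binds integrins of leukocytes, was read by a bright probe set (203868_s_at). Its signal was 5970, 5387 and 6318 with SHH, against 8538, 8494 and 9201 untreated. All SHH arrays lay below all untreated arrays, and the log2 difference was -0.57 ± 0.12. Of 24 genes of leukocyte adhesion 8 had a name, 4 with a higher and 4 with a lower mean, and none passed. ITGA4, a chain of the integrin that binds VCAM1, lay at -0.38 ± 0.11, and the junctional molecules JAM2 and JAM3 at -0.45 ± 0.13 and 0.56 ± 0.21. CD44, the hyaluronan receptor, lay at 0.29 ± 0.14, CD47 at 0.36 ± 0.10 and ALCAM at 0.22 ± 0.11. All 6 named probe sets of CD44 went in the same direction. Each has its name through this same comparison, so nothing is read from that. The 1 named probe set of the integrin chain ITGB1 was dim, at 80.2 ± 89.7 in SHH-treated and 211 ± 51.9 in untreated cells (SD, n = 3 each), and its arrays overlapped.

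SOD2, the manganese superoxide dismutase of mitochondria and a classical NF-kB target, was read by 3 probe sets, all higher on every SHH array than on any untreated one. All 3 have their name through this same comparison, so nothing is read from their agreement. The probe set 216841_s_at had 3455, 3682 and 4304 with SHH, against 1595, 2226 and 2260 untreated. The probe set 215223_s_at had 2713, 3196 and 2614 with SHH, against 1210, 1561 and 1962 untreated. In both, untreated replicate 1 was the lowest of its group.

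Their log2 differences, 0.92 ± 0.18 and 0.86 ± 0.20, lay within 1 SE of each other, and without untreated replicate 1 they were 0.76 and 0.69. The third probe set, 221477_s_at, is named SOD2 by the authors, who mark it as intronic, and MGC5618 by the array annotation, so that the second brightest, 216841_s_at, stands for the gene among the lists. It had 7892, 8354 and 8457 with SHH, against 5304, 5077 and 5646 untreated. Its difference was smaller, at 0.62 ± 0.11, and its arrays were closer together. The mean over the 3 probe sets, with 221477_s_at included, was 0.80. Of 20 genes of superoxide and mitochondrial antioxidant defence, 5 had a name including SOD2, 4 with a higher and 1 with a lower mean, and none passed. The peroxiredoxin PRDX1 lay at 0.28 ± 0.11, glutathione reductase (GSR) at 0.31 ± 0.12 and thioredoxin (TXN) at 0.24 ± 0.12. PRDX2 lay at -0.57 ± 0.30, with overlapping groups. With 5 genes named through this same comparison, the count of this list describes no common direction.

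NFKBIZ, a nuclear IkappaB protein that steers NF-kB towards a subset of its targets, is listed in the deposited table under its older symbol MAIL. Its signal was 513, 561 and 469 with SHH, against 835, 772 and 740 untreated. The groups did not overlap, and the log2 difference was -0.59 ± 0.12. Of 37 NF-kB targets and feedback genes 7 had a name, 4 with a higher and 3 with a lower mean, and none passed. Besides SOD2, the higher means were those of the inhibitor NFKBIB at 0.72 ± 0.23, of TNFAIP2 at 0.63 ± 0.14 and of TNFAIP3, the ubiquitin-editing inhibitor A20, at 0.40 ± 0.12. Besides NFKBIZ and VCAM1, the lower mean was that of the cytokine IL6, with a signal of 192 ± 19.9 in SHH-treated and 355 ± 18.5 in untreated cells (SD, n = 3 each) and a log2 difference of -0.84 ± 0.12. The median of the list was 0.40, and with 4 genes on one side and 3 on the other it describes no common direction.

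IFIT1, an antiviral protein that binds RNA lacking the host's cap methylation, was the more even of the pair of IFIT genes among treated arrays. It had 1171, 1155 and 1194 with SHH, against 1616, 2163 and 1825 untreated. The SHH arrays lay within 1.03-fold of each other, whereas the untreated arrays spanned 1.34-fold, with replicate 2 the highest. The log2 difference was -0.65 ± 0.14, and it was -0.54 without untreated replicate 2.

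IFIT2, of the same family of tetratricopeptide repeat proteins, had 278, 372 and 356 with SHH, against 516, 486 and 568 untreated. Here the SHH arrays were the more uneven ones, with replicate 1 the lowest. The log2 difference was -0.63 ± 0.15, and it was -0.50 without SHH replicate 1. Of 43 genes of the type I interferon response 4 had a name, all with a lower mean in SHH-treated cells and none past the threshold. IFI6, a small mitochondrial protein induced by interferon, lay at -0.56 ± 0.22 with overlapping groups, and the DNA sensor IFI16 at -0.25 ± 0.10. The rest of that list has no name here, so that the list as a whole cannot be described.

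GBP2, a guanylate-binding GTPase that acts on intracellular bacteria, differed in direction from the IFIT genes. It had 1106, 988 and 1113 with SHH, against 666, 716 and 784 untreated. The groups did not overlap, and the log2 difference was 0.56 ± 0.12. Of 35 genes of the interferon gamma response 5 had a name, 4 with a higher and 1 with a lower mean, and none passed. As these few genes have their name through this same comparison, the count describes no common direction and no contrast with the type I list. The transcription factor IRF8 lay at 0.79 ± 0.18, the tryptophanyl-tRNA synthetase WARS1 at 0.39 ± 0.10 and SOCS1, an inhibitor of interferon receptor signalling, at 0.44 ± 0.12. HLA-E, a ligand of receptors on natural killer cells, lay at -0.25 ± 0.11.

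**Figure D3:**
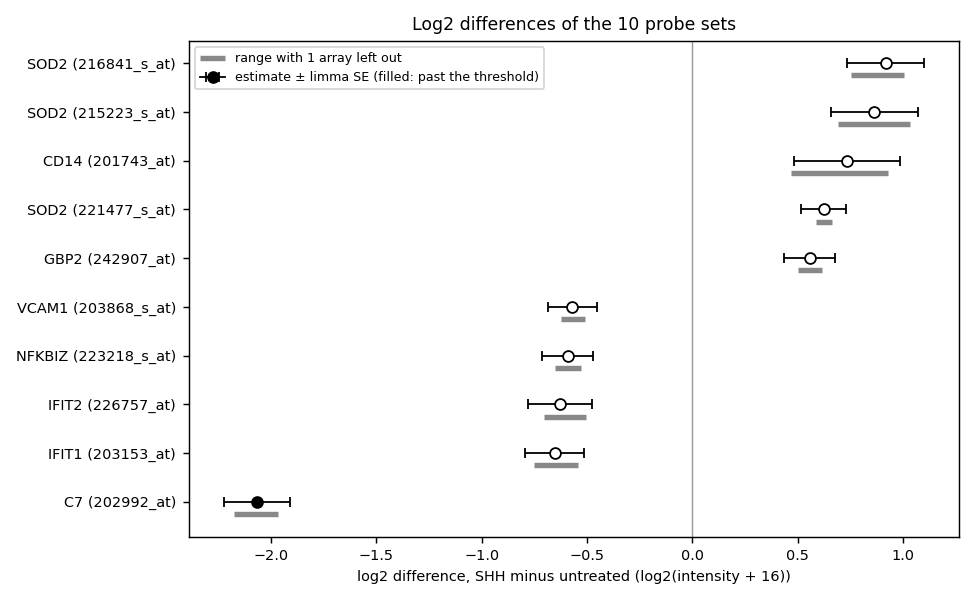
Log2 difference, SHH minus untreated (horizontal axis), of the 10 probe sets (rows), with limma's moderated SE (thin bars) and the range when any 1 of the 6 arrays is left out (grey bars); the filled point passed limma's threshold. C7 lies at -2.07, the other 9 between -0.65 and 0.92, and the grey bar of CD14 is among the widest.

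Limma with an intensity trend, in which the prior spread follows brightness, called 8 of the 10 probe sets, all but those of CD14 and IFIT2, against 1.86% of all probe sets. Over the 27538 probe sets with a mean signal of 100 or more it called 4 of the 10, those of C7, VCAM1, NFKBIZ and the SOD2 probe set 221477_s_at, against 1.95%. As the names rest on the same comparison, nothing is read from these shares.

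The spread between arrays of a group, which the groups' difference does not enter, was set beside that of other probe sets of like brightness (within 0.5 of the mean log2 signal). It was above their median for 7 of the 10 probe sets and below it for 3. C7 had a pooled SD of 0.18 on the log2 scale, where 2439 probe sets of like brightness had a median of 0.088. The SOD2 probe sets 216841_s_at and 215223_s_at had 0.23 and 0.27, against medians of 0.088 and 0.095, while 221477_s_at had 0.066, against 0.080. CD14 had 0.34, against 0.23. The deposited p from which the names come depends on this spread too, so it is a description as well.

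**Figure D4:**
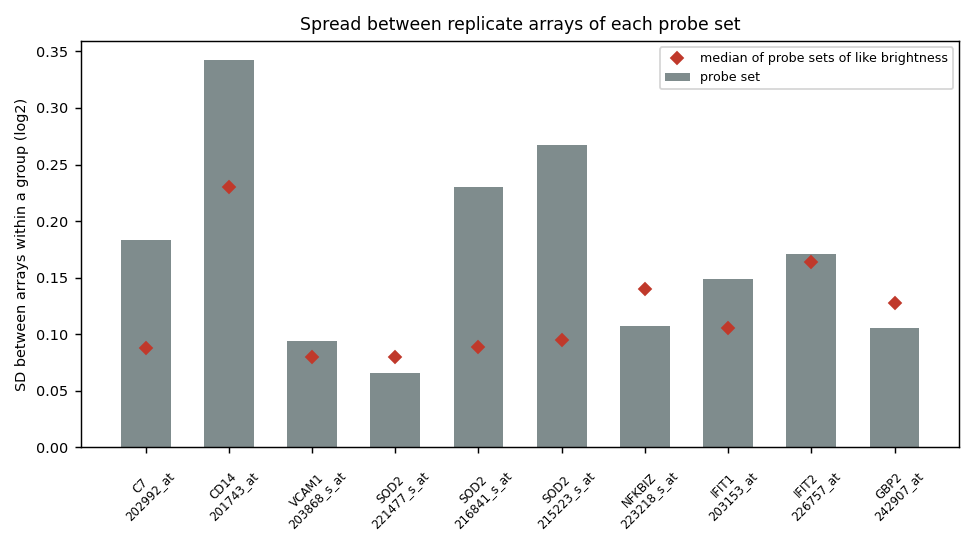
Pooled SD between the 3 arrays of a group (log2 scale, bars from 0) for each of the 10 probe sets, with the median of probe sets of like brightness (diamonds). The bars of C7, CD14 and the SOD2 probe sets 216841_s_at and 215223_s_at stand well above their diamonds, and those of NFKBIZ, GBP2 and the SOD2 probe set 221477_s_at below.

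The named genes whose pattern over the 6 arrays came nearest to that of C7, by the root mean square difference of log2 values taken relative to each gene's own untreated mean, were TNC, DOK6, MSH4, CCL11 and PHF2, at distances of 0.15, 0.20, 0.23, 0.26 and 0.29. This measure is led by the size of the difference between the groups, from which the named genes were selected. For tenascin-C (TNC), a matrix glycoprotein, the signal was 453, 509 and 649 with SHH, against 2514, 2194 and 2277 untreated. For the chemokine CCL11 it was 115, 147 and 180 with SHH, against 521, 553 and 488 untreated.

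In C7, TNC, CCL11 and MSH4, SHH replicate 1 was the lowest and SHH replicate 3 the highest of the treated arrays. The genes were picked by nearness to C7 over these same arrays, so nothing is read from that shared order. DOK6, MSH4 and PHF2 were dim, with SHH signals between 5.77 and 12.3, so that their log2 differences depend on the pseudocount. The SHH arrays of MSH4 hardly differed, at 5.77, 6.47 and 6.48. None of the other 7 genes was close to C7. IFIT1 came nearest among them at 1.01, in place 228 among the named genes, and SOD2 lay farthest at 2.11.

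**Figure D5:**
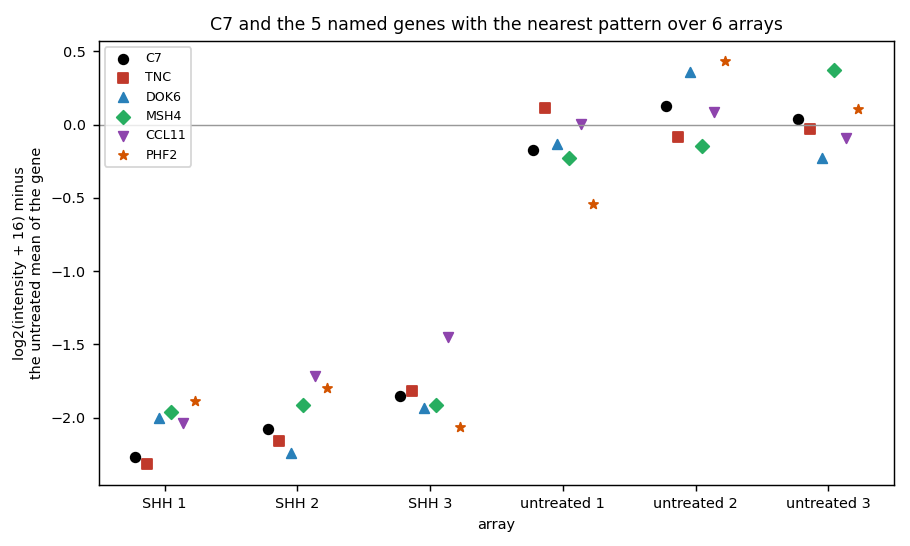
Log2 signal minus the untreated mean of the gene (vertical axis) on the 3 SHH and the 3 untreated arrays (horizontal axis) for C7 and the 5 named genes nearest to it. All 6 genes lie between -2.32 and -1.45 on the SHH arrays. Of these arrays, SHH replicate 3 is the highest for C7, TNC, DOK6, MSH4 and CCL11. Nothing is read from that order, as the genes were picked by nearness to C7 over the same arrays.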

How the data were processed

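RNA of 6 cultures was measured on 6 Affymetrix arrays, per the labels' protocols. The value table deposited by the authors holds linear intensity values, 1 for each probe set on each array, without detection calls; how probes were summarised and scaled is not stated in these sources. The comparison deposited by the authors was made with Cyber-T, per the readme, and lists p-value, q-value and log2 fold change; its direction is untreated minus SHH per the file headers, and the sign was turned here.

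Names came from the authors' table of 2411 probe sets: 2154 had 1 symbol after updating through RefSeq synonyms (GRCh38.p14). Members were taken by symbol in either name column, MAIL being a synonym of NFKBIZ. A gene is represented by its brightest probe set on which the name columns do not disagree, so that 221477_s_at does not stand for SOD2. Limma 3.58.1 in R 4.3.3 (lmFit, eBayes, 2-sided, Benjamini-Hochberg over 54613 probe sets, threshold 0.05) was fitted to log2(intensity + 16) without a filter, and was tested on simulated data. Alternatives were other pseudocounts and scalings, a filter, an intensity trend, a replicate block and leaving out each array. Tables were made in Python 3.11.15 with pandas 2.3.3. Samples were grouped by title.

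The members and lists were chosen with earlier results of these data known. Apart from genes of the complement list that are not reported here, the text names every member, the other named genes of the pathway lists and the 5 named genes nearest to C7. Of the other markers of cell types, KRT18 (epithelial, 1 of 8 named) lay at -0.42 ± 0.11, and COL3A1 and DCN (fibroblast) at -0.66 ± 0.17 and -0.93 ± 0.25, none past the threshold. COL3A1 and DCN each had 1 named probe set, with low mean signals. These were 243 with SHH and 395 untreated for COL3A1, and 240 and 460 for DCN. Brighter or unchanged probe sets of these genes may exist without a name here.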

Additional observations from a re-analysis of the deposited data

How the results depend on the processing

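With other pseudocounts and scalings the log2 differences of the 10 probe sets kept their sign, and 38 of 40 values moved by less than the SD between replicates. The exceptions were those of the SOD2 probe set 221477_s_at, at 0.56 after quantile normalization and 0.71 with arrays centred on their medians. That centring moved the median log2 difference over all probe sets from -0.047 to 0.038, a shift that weighs most on the smallest differences given above. The filter, the intensity trend and the replicate block leave a difference of group means as it is, and leaving out an array cannot reverse groups that do not overlap. CD14 moved most on leaving out an array, to 0.47 without untreated replicate 2 and 0.93 without untreated replicate 1. Counts of higher list members did not move by over 1.5 times in 24 recomputations. As the genes counted have their names through this same comparison, nothing is read from that. The count of limma calls over all probe sets, 67, was 0 (5009 before adjustment, at p under 0.05) with 1 as the pseudocount, 295 with 64, 34 with equal array medians, 537 over probe sets with a mean signal of 100 or more, 1014 with an intensity trend and 0 with the replicate block (4746 before adjustment). It was 0 to 0 with any 1 array left out, and 4411 to 5180 before adjustment. The calls among the 10 probe sets, 1 in the fit reported, were 0 with 1 as the pseudocount, 0 with equal array medians, 4 with the filter, 8 with the intensity trend, 0 with the replicate block and 0 to 0 with any 1 array left out. The filter leaves fewer probe sets and each left-out array fewer arrays, but the causes of these changes in the counts were not tested. Replicate numbers did not pair the arrays: deviations from the group means of same-numbered arrays correlated, over probe sets, at 0.010, 0.019 and -0.015. Signal over background is not known, as the arrays carry no detection calls, and limits CD14 and the dim probe sets most.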
